A study of Homo sapiens with 9 samples.

Results

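Clone g3_4 was grown from a single cell of the Hodgkin lymphoma line L-1236 after a guide RNA had directed Cas9 to exon 4 of LTA. It was compared with L-1236 control cells on human Clariom S arrays, which measure the RNA of annotated genes as transcript clusters. The members were chosen by the sample titles: 3 arrays of the exon 4 knockout and 3 of cells titled wild type, which is 6 of the 9 arrays in the series. The other 3 arrays are of clone g2_1, made with a guide against exon 2, and serve here only to show where g3_4 differs from it. All 20893 rows with an ID of a transcript cluster were described, and 17687 genes with a symbol were among them.

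All groups carried the lentiCRISPR v2 vector, which delivers Cas9, and the labels name no guide against LTA for the control. Clones g3_4 and g2_1 had been grown in conditioned medium, taken from cultures of L-1236, and every group spent the last 72 h in plain medium before RNA was taken. Each knockout is 1 clone, so the loss of LTA, the choice of a single cell and the earlier medium cannot be told apart. Whether the control is also 1 clone, or had also seen conditioned medium, is not given in the labels. Nor do they tie the 3 arrays of each group to separate cultures, so the spread behind every p-value is that of these arrays and may be purely technical.

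LTA encodes lymphotoxin alpha, a cytokine of the tumour necrosis factor family. As a secreted trimer it binds the TNF receptors, and together with lymphotoxin beta it forms a membrane complex that binds the lymphotoxin beta receptor. These receptors activate the NF-kB transcription factors, which are known to be constantly active in Hodgkin and Reed-Sternberg cells, the tumour cells of Hodgkin lymphoma. The comparison asks which transcripts differ between cells of this line with and without a targeted LTA gene.

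The values were log2 signals with array medians between 6.15 and 6.19 in g3_4 and between 6.27 and 6.29 in the control. The control arrays were less alike than those of g3_4. Their SD was above 0.5 in 950 transcript clusters, against 112 in g3_4, and control array 1 lay farthest from the others in 838 of the 950. The array numbered 1 of each group also had the higher RNA integrity number, 10 against 9.5 on the other arrays of g3_4 and the control. The part of control array 1 in the results was not tested, and only some results that move with it are given without it. Without it, STAT6 (-0.85), STAT4 (0.93), FOXO1 (0.82), ZNF652 (0.83), ITGB7 (0.94) and CD247 (0.90) still passed the test but changed by less than 2-fold. SOCS6 then fell by 1.70 (log2), HOXD11 by 1.54 and ZNF532 by 2.78, each less than with the array. TXNIP fell by more, 6.31.

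LTA, the targeted gene, had log2 signals of 11.58, 11.07 and 11.08 on the control arrays and of 6.94, 7.25 and 6.61 on the g3_4 arrays. The groups did not overlap, as in 28.9% of all transcript clusters, and the nearest arrays lay several log2 units apart. LTA fell by 4.31 (log2, SE 0.23; limma adjusted p = 4.2e-07). An exact two-sided permutation test of 3 against 3 arrays gave p = 0.1, the smallest that its 20 splits allow. The g3_4 signal stayed above the floor of the array defined below, and the position of the LTA probes along the transcript was not looked at. The difference from clone g2_1 was -0.60 (95% interval -1.11 to -0.09; adjusted p = 0.985) and did not pass the test.

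**Figure D1:**
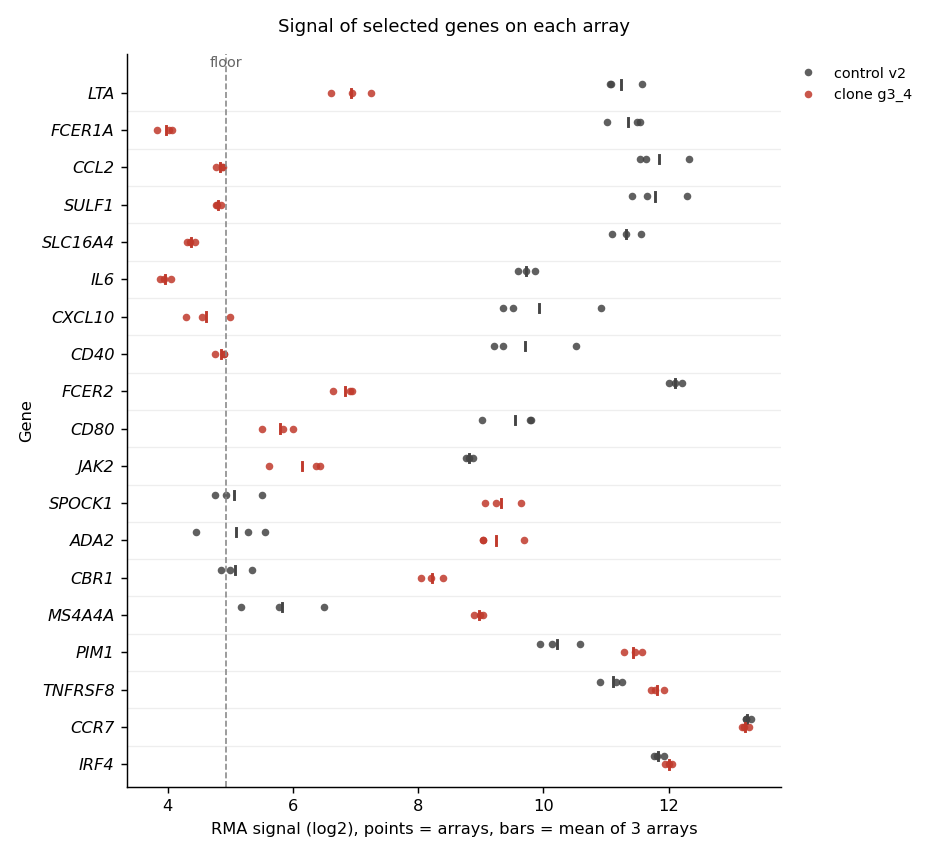
Log2 signal of 19 genes on each control and g3_4 array, with points for arrays and bars for means of 3 arrays. The arrays of the groups do not overlap for any gene shown except CCR7, and FCER1A, CCL2, SULF1, SLC16A4, IL6, CXCL10 and CD40 lie near or under the dashed floor of 4.94 in g3_4.

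Against the control, 886 of 20893 transcript clusters (4.24%) were called in g3_4, by a limma adjusted p under 0.05 and a change of at least 2-fold. Of these, 667 (3.19%) were lower and 219 (1.05%) were higher, so that 75.3% of the calls were falls. The falls were also deeper. At least 4-fold changes numbered 267 falls and 23 rises, at least 16-fold changes 62 and 2, and at least 32-fold changes 26 and 0. Centring each array on its median moved the median change of all transcript clusters from 0.03 to 0.14 and gave 584 falls and 304 rises. Without control array 1 there were 613 falls and 147 rises. Without a limit on the fold 14.3% passed and the directions were closer, with 1705 falls (8.16%) and 1278 rises (6.12%). This balance turned with the scaling: among genes with a symbol, 1535 falls and 1150 rises without a limit on the fold became 1258 falls and 2115 rises after centring.

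Many of the falls ended at the bottom of the measuring range. The signal of 348 olfactory receptor genes, which are silent in most tissues, was taken as a guide to that floor, and the 95th percentile of their control means was 4.94. Of the 667 falls, 271 ended at or under this floor, with a median over all falls of 7.83 in the control and 5.37 in g3_4. Of the 219 rises, 10 started from it, and their median went from 7.21 to 8.68. The size of a fall that ends at the floor is bounded by it. Among transcript clusters with a control mean between 6 and 8, 6.65% were called lower, the highest share by level. It was 5.09% between 8 and 10, 3.72% above 10, 2.09% between the floor and 6, and 0.0150% of those already at the floor.

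**Figure D2:**
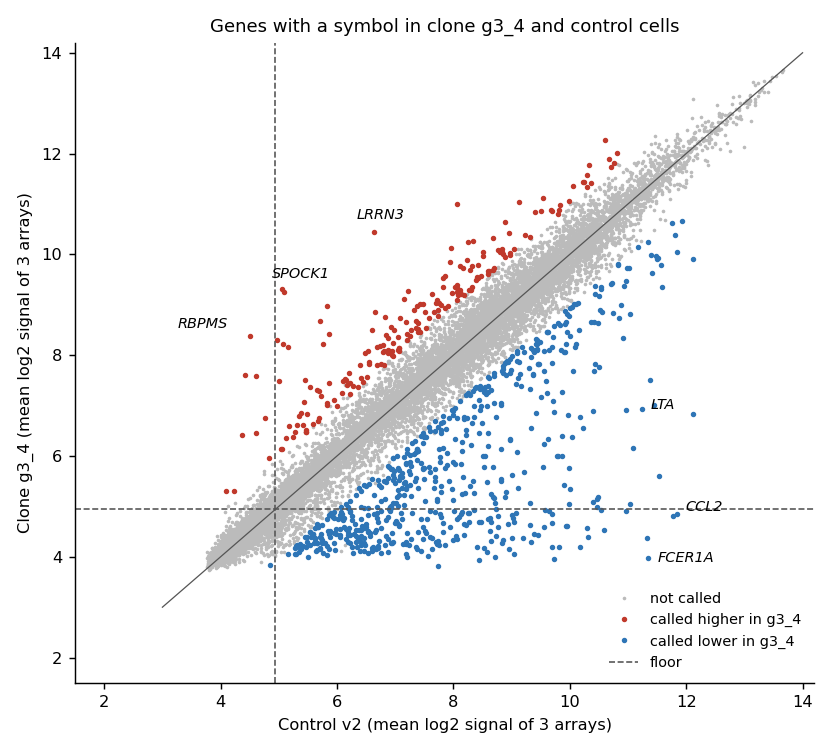
Mean log2 signal in control cells (horizontal) and in clone g3_4 (vertical) of genes with a symbol, with called genes in colour, the floor as dashed lines and equality as the solid line. Called falls form a band along the floor from low to high control levels, whereas called rises keep closer to the line of equality.

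The largest fall was that of FCER1A, which encodes the IgE-binding chain of a receptor known from mast cells and basophils. Its log2 signals were 11.54, 11.01 and 11.49 in the control and 4.02, 4.07 and 3.83 in g3_4, a fall of 7.37 (SE 0.16; limma adjusted p = 7.1e-10). CCL2, a chemokine that attracts monocytes, gave 12.33, 11.54 and 11.64 against 4.88, 4.77 and 4.87 and fell by 7.0. All 3 g3_4 arrays of both genes lay at or under the floor, and all control arrays were among the strong signals of the array. SULF1, a sulfatase that trims heparan sulfate outside the cell, gave 12.29, 11.41 and 11.65 against 4.86, 4.77 and 4.79 and fell by 6.98. SLC16A4, a transporter of the monocarboxylate family, gave 11.32, 11.09 and 11.56 against 4.31, 4.44 and 4.35 and fell by 6.96. The next falls were of the sorting receptor gene SORL1 (6.06), the adaptor gene APBA1 (6.05), RGS2 (5.98), the membrane protein gene BASP1 (5.93), TXNIP (5.91), IL6 (5.77), the nicotinic receptor subunit gene CHRNA6 (5.73), RGS1 (5.63) and IL13RA1 (5.49), as log2 sizes with SEs of 0.11 to 0.27 and limma adjusted p of at most 1.1e-07. CKMT1A (5.98) and CKMT1B (5.62), mitochondrial creatine kinases, are near-identical copies whose probes may read both.

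A set of 64 genes was at a control mean of at least 8 and at or under the floor in g3_4. Their falls ranged from 3.11 to 7.37 with a median of 4.50. In clone g2_1, 51 of the 64 were also at or under the floor and the highest stood at 5.39, and none of the 64 passed the test between the clones (0 in limma at an adjusted p under 0.05). Only RBPMS, which encodes an RNA-binding protein, moved in the reverse direction, from the floor to at least 8. Apart from the genes above, the 64 include CXCL10, CD40, ALCAM, BCL11A, LEF1, UGT2B17, CYP1B1, IL1RL1, CMA1, RGS13 and MX1, whose values follow with their groups.

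The largest rise was that of SPOCK1, a proteoglycan gene. Its log2 signals were 5.51, 4.93 and 4.75 in the control and 9.64, 9.07 and 9.25 in g3_4, which is 19.1-fold higher (log2 4.26, SE 0.21; limma adjusted p = 1.9e-07). ADA2, a secreted adenosine deaminase, gave 4.45, 5.55 and 5.28 against 9.69, 9.03 and 9.03 and was 17.8-fold higher. The control arrays of both genes scattered around the floor, while the g3_4 arrays were high and close together. RBPMS was 14.8-fold higher, and ATP12A, a proton pump subunit, 10.1-fold, while the neuronal membrane protein gene LRRN3 rose by 3.81 on the log2 scale, and these 3 differed between the clones, as described at the end. Also higher were the NK cell receptor gene CD244 (9.06-fold), MS4A4A (8.90-fold), the carbonyl reductase gene CBR1 (8.86-fold), FAM30A (8.0-fold), the phosphoinositide 3-kinase gene PIK3CG (7.93-fold), the adhesion receptor gene ADGRG1 (7.89-fold), ALOX5AP of leukotriene synthesis (7.64-fold), ATP8B4 (5.91-fold), the protease gene TLL1 (5.57-fold) and TRIM29 (5.54-fold). Limma adjusted p of these was at most 6.5e-04. RBPMS, CD244 and ADGRG1 started under the floor, at control means of 4.50, 4.42 and 4.61, and ATP12A at 4.97 started on it, so their folds are limited by the floor and have no exact order. For ALOX5AP control array 1 was low, at 6.82 against 8.70 and 8.65, and for PIK3CG at 4.63 against 5.90 and 6.56. Without that array the log2 changes were 2.31 in place of 2.93 for ALOX5AP and 2.45 in place of 2.99 for PIK3CG, and both passed.

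Genes that carry the lymphotoxin and TNF signal from receptor to NF-kB mostly did not pass the test in g3_4. Of 23 measured, 3 rose and 2 fell (limma adjusted p under 0.05), with a median change of 0.03. The shares over the 17687 genes with a symbol were 6.50% rising and 8.68% falling, with the same median of 0.03. They are the background for every list below. Of the 17687 genes, 12704 had a mean above the floor in the control or g3_4, and genes at the floor can hardly fall. The lists were chosen with earlier results of these data known, so their shares are descriptions and not tests. Centring moved this background to 2115 rising and 1258 falling genes and its median to 0.14. Counts of rises in the lists thus depend on the scaling. Counts after centring are given for some lists only, and those of the other lists may move as well. LTB, the membrane partner of LTA, stood at 6.78, 6.71 and 6.53 in the control and 6.83, 6.75 and 6.74 in g3_4, with arrays that overlapped. The receptor genes LTBR (log2 change 0.22, SE 0.15), TNFRSF1A (0.21, SE 0.13) and TNFRSF14 (-0.33, SE 0.11) did not pass either, with adjusted p of 0.401, 0.360 and 0.0677. TNFRSF14 passed with the replicate block (0.0438) and with array weights (0.0379).

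Among the NF-kB subunits, REL gave 9.73, 9.0 and 9.23 in the control and 7.17, 7.43 and 7.37 in g3_4 and fell by 2.0 (SE 0.17; limma adjusted p = 1.5e-05). NFKB1, the precursor of the p50 subunit, gave 10.10, 9.67 and 10.07 against 8.74, 9.08 and 9.10 and fell by 0.97. In both genes every g3_4 array lay below every control array. RELA (0.56), the kinase gene IKBKB (0.70) and the adaptor gene TAB2 (0.51) rose with adjusted p of 0.0117, 0.0313 and 0.0328. Of these rises, only RELA still passed without g3_4 array 2, without g3_4 array 3 or without control array 1, and RELA did not pass without g3_4 array 1 (adjusted p = 0.0508). NFKB2, the precursor of p52, had a change of -0.59 (SE 0.19; adjusted p = 0.0657), and passed with the array number as a replicate block (0.0331) and with an intensity trend in the variance (0.0486).

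Of 39 NF-kB target genes 16 fell and 1 rose, which is 41.0% and 2.56%, beside 8.68% and 6.50% of all genes. The median change was -0.29. Of the 39, 34 lay above the floor in the control or g3_4, against 12704 of the 17687 genes behind the 8.68%, so this background holds more genes without room to fall. The falls were of very unequal size. IL6, a cytokine of inflammation, gave 9.59, 9.73 and 9.87 in the control and 4.05, 3.94 and 3.88 in g3_4. CXCL10, a chemokine induced by interferons, gave 10.92, 9.35 and 9.52 against 4.30, 4.55 and 4.99 and fell by 5.32 (SE 0.35; limma adjusted p = 2.1e-06). Both ended near the floor on all 3 arrays, and CXCL10 was highest on control array 1. The hyaluronan receptor gene CD44 fell by 5.30, the costimulatory receptor gene CD40 by 4.85, the chemokine gene CCL3 by 3.38, the adhesion molecule gene VCAM1 by 2.93, and the survival genes BCL2A1 and BCL2L1 by 2.50 and 1.62, with SEs of 0.12 to 0.28. CCL5 (0.98), ICAM1 (0.87) and IRF1 (0.60) fell less and stayed high in g3_4, with mean log2 signals of 10.07, 10.08 and 8.42. Other targets at high signal did not pass: CCR7, a chemokine receptor, stood at 13.24, 13.32 and 13.23 in the control and 13.17, 13.29 and 13.21 in g3_4. IRF4 (0.17), MYC (0.13) and TNFAIP3 (0.27) had small positive changes that did not pass. Without control array 1, 14 fell and 1 rose, with a median of -0.26. The rises numbered 3 without g3_4 array 1, 2 without control array 2 or 3 and 0 without g3_4 array 3. With the arrays centred 13 fell and 6 rose, with a median of -0.18.

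The promoters of 3 genes that fell to the floor are shown because they hold matches to the kappaB consensus, the DNA word of NF-kB. They run from 250 bases before to 50 after the start of the gene, 5′ to 3′ on the strand of the gene, from RefSeq (GRCh38.p14), with matches in capitals. They were chosen after the values were seen. IL6 lies at chr7:22726950-22727249 on the plus strand, CXCL10 at chr4:76023448-76023747 on the minus strand and RGS1 at chr1:192575523-192575822 on the plus strand. In CXCL10 the first capitals are GAAA repeated after a gap of 2 bases, as in interferon response elements, and the others are kappaB matches.
IL6: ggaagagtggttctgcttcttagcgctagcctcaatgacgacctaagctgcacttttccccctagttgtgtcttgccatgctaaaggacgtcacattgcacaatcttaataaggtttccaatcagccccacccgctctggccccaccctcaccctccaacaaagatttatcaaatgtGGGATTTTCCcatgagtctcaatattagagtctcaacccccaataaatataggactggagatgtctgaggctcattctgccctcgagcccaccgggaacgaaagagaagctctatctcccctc
CXCL10: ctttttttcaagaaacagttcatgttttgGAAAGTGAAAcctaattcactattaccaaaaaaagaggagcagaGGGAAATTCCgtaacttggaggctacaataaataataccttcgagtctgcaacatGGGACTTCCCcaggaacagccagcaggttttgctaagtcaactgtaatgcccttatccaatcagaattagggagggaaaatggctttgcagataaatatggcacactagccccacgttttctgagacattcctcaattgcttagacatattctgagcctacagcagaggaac
RGS1: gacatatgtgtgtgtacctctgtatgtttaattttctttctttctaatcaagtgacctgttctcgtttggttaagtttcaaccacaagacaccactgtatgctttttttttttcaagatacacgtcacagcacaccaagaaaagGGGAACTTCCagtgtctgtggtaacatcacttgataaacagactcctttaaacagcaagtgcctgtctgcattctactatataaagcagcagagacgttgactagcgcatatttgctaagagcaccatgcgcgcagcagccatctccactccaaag
A kappaB match on either strand was found in 23.9% of the 46 promoters in the table that belong to the 64 genes lost to the floor. The share was 12.4% among the 14250 tested genes in the table, 12.4% among 490 of the 611 called lower (3.45% of genes), 10.8% among 158 of the 200 called higher (1.13%) and 11.3% of all 35116 promoters. A match is a description of these letters, and no binding was measured.

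The cell type was checked with genes that Hodgkin and Reed-Sternberg cells are known to express. The line expressed TNFRSF8, which encodes CD30, at 11.25, 10.91 and 11.16 in the control and 11.92, 11.72 and 11.79 in g3_4, a rise of 0.70 (SE 0.12; limma adjusted p = 0.00202). IRF4, a factor of late B cells, stood at 11.82, 11.76 and 11.92 in the control and 11.94, 12.01 and 12.05 in g3_4 without passing the test. Both genes, which such cells express, were thus among the strong signals in both groups. MS4A1, which encodes the B cell protein CD20 and was named after its values were seen, was at 4.38 in the control and 4.40 in g3_4, under the floor. Of 11 B cell markers measured, 8 lay above the floor.

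Yet other genes of this list fell: 14 of 26 (53.8%) fell and 2 (7.69%) rose, with a median change of -0.48. Over all genes with a symbol 8.68% fell and 6.50% rose, but many of those lay at the floor, while all 26 genes of the list lay above it. FCER2, the low-affinity IgE receptor CD23, gave 12.21, 12.11 and 12.01 in the control and 6.64, 6.95 and 6.91 in g3_4 and fell by 5.28 (SE 0.14; limma adjusted p = 2.1e-09). The interleukin 13 receptor gene IL13RA1 fell by 5.49, to the floor. CD80, a ligand that costimulates T cells, gave 9.79, 9.02 and 9.81 against 5.51, 5.85 and 6.01 and fell by 3.75. The genes of both PD-1 ligands were lower on all g3_4 arrays than on any control array, PDCD1LG2 by 3.47 (SE 0.17) and CD274 by 2.36 (SE 0.21). The kinase gene JAK2, which lies beside them, gave 8.82, 8.76 and 8.88 against 5.62, 6.44 and 6.37 and fell by 2.68. The transcription factor genes GATA3 and STAT6 fell by 1.49 and 1.08, and the chemokine gene CCL22 by 1.10. CD86, the relative of CD80, had a change of 0.23 (SE 0.13; adjusted p = 0.308), and FSCN1, an actin bundler that marks these cells, one of -0.39 (SE 0.18; adjusted p = 0.209). CD86 passed without control array 3 (adjusted p = 0.0381). Without control array 1, 12 fell and 2 rose, and 4 rose without control array 3. With the arrays centred 11 fell and 4 rose.

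Cytokine signalling through JAK and STAT proteins moved in both directions. Of 28 genes measured, 8 (28.6%) rose and 4 (14.3%) fell, with a median change of 0.14. PIM1, a kinase induced by STATs, gave 9.94, 10.14 and 10.58 in the control and 11.58, 11.29 and 11.46 in g3_4. It was 2.33-fold higher (log2 1.22, SE 0.15 on the log2 scale, limma adjusted p = 3.5e-04). The signal transducer gene STAT4 (2.19-fold) and the feedback inhibitor gene CISH (1.70-fold) were also higher, while SOCS6, of the same family as CISH, fell by 2.16. The number of rises was 3 without g3_4 array 1 and 5 without g3_4 array 2, g3_4 array 3 or control array 2. With the arrays centred 10 rose and 3 fell.

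Among 50 receptors for cytokines and chemokines, 10 (20%) fell and 7 (14%) rose. IL5RA, the interleukin 5 receptor, gave 10.47, 10.07 and 10.65 in the control and 5.16, 5.10 and 5.0 in g3_4 and fell by 5.31 (SE 0.16; limma adjusted p = 4.1e-09). IL1RL1, the receptor for interleukin 33, fell by 4.63, to the floor. The rises were smaller: LIFR of the interleukin 6 receptor family was 2.98-fold higher, TGFBR1 2.66-fold and OSMR 2.36-fold. LIFR gave 6.44, 6.34 and 6.65 against 7.91, 8.11 and 8.14, with all g3_4 arrays above. Of 49 cytokines and chemokines, 10 (20.4%) fell, led by CCL2, IL6 and CXCL10, and 3 (6.12%) rose.

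Genes induced by interferons were split, with 11 of 43 (25.6%) fallen and 7 (16.3%) risen. MX1, an antiviral GTPase, gave 9.54, 7.69 and 7.57 in the control and 4.81, 4.73 and 4.56 in g3_4 and fell by 3.57 (SE 0.41; limma adjusted p = 1.8e-04). IFI44L gave 9.08, 6.27 and 7.58 against 4.75, 4.44 and 3.96 and fell by 3.26. GBP5, a guanylate-binding protein, gave 7.40, 8.04 and 8.01 against 4.47, 4.54 and 4.46 and fell by 3.33. Control array 1 was the highest control array for MX1 and IFI44L and the lowest for GBP5, and the g3_4 arrays lay near or under the floor for all 3. Without that array MX1 fell by 2.93 and IFI44L by 2.54. The number of rises was the less stable one, at 12 without control array 1 and 3 without g3_4 array 2, while the falls were 11 without control array 1. With the arrays centred 9 fell and 10 rose, so that neither direction led under both scalings.

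The promoters of MX1 (chr21:41420308-41420607, plus strand) and IFI44L (chr1:78620198-78620497, plus strand) are shown because both hold this repeated GAAA. They come from the same table and were also chosen after the values were seen. In MX1 the first capitals are a kappaB match and the second capitals are the repeated GAAA, which lies just after the start of the gene. In IFI44L both runs of capitals are the repeated GAAA.
MX1: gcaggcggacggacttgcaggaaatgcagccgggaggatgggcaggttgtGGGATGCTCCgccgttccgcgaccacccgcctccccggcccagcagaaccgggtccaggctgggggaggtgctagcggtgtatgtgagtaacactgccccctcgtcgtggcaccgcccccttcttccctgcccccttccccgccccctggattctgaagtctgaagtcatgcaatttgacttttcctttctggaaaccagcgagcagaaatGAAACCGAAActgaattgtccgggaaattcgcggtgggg
IFI44L: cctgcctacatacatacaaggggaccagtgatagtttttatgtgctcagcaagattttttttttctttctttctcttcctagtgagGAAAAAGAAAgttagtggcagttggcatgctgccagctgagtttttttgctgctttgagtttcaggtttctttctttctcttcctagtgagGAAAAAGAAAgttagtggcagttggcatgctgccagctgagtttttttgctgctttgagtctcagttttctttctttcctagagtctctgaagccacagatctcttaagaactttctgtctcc
On either strand, GAAA, any 2 bases and GAAA were found in 8.7% of the promoters of genes lost to the floor and in 5.1% of those called lower. The share was 3.16% of those called higher, 3.11% of the genes tested and 3.57% of all promoters in the table. These are shares of letters found, from 4 promoters of the lost genes and 25 of those called lower. Other words were searched as well. TGA, any base and TCA had the same share of 8.7% among lost genes, with 4.9% of those called lower, 8.86% of those called higher and 5.75% of the genes tested. For TTC, any 4 bases and GAA the shares in this order were 6.52%, 6.73%, 1.9% and 5.25%.

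The B cell programme, which Hodgkin cells have in large part lost, shifted in single genes. Of 27 B cell transcription factors and cofactors, 7 (25.9%) fell and 3 (11.1%) rose. BCL11A gave 10.32, 9.29 and 9.34 in the control and 4.71, 5.08 and 4.93 in g3_4 and fell by 4.74 (SE 0.27; limma adjusted p = 6.2e-07). LEF1 of the Wnt pathway fell by 3.39 and PAX5, the master factor of B cell identity, by 0.83, whereas FOXO1 was 2.10-fold higher. BCL11A and LEF1 reached the floor, and PAX5 did not, at 6.48 in g3_4. The rises numbered 1 without any single g3_4 array, and 6 with the arrays centred, beside 7 falls. Of 36 genes of B cell receptor signalling, 7 (19.4%) rose and 3 (8.33%) fell. Among the rises were the phospholipase gene PLCG2 (3.04-fold) and RASGRP3, whose control mean of 4.76 lay under the floor. The falls were the inhibitory Fc receptor gene FCGR2B by 3.11, VAV2 by 1.64 and MALT1 by 1.52. Without g3_4 array 2 or 3 the rises numbered 4.

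Adhesion genes moved in opposite directions by molecule. Of 52 genes, 9 (17.3%) rose and 5 (9.62%) fell, and 5 rose without g3_4 array 1. The leukocyte integrin subunit gene ITGAL gave 5.36, 5.38 and 5.60 in the control and 7.84, 7.34 and 7.34 in g3_4. It was 4.17-fold higher (log2 2.06, SE 0.14 on the log2 scale, limma adjusted p = 2.8e-06), and ITGB7 was 2.31-fold higher. PECAM1 gave 11.28, 9.96 and 10.13 against 4.88, 5.24 and 4.83 and fell by 5.47, and ALCAM fell by 4.33. The adhesion molecules CD44, VCAM1 and ICAM1 made up the other falls. Of 35 genes of the myosin and actin cytoskeleton 12 (34.3%) rose, each by less than 2-fold, and 2 (5.71%) fell. PDLIM1 was 1.90-fold and the nonmuscle myosin gene MYH10 1.61-fold higher, while VCL, which links actin to adhesions, fell by 1.35. Without g3_4 array 1 the rises numbered 7, and without any single g3_4 array or control array 2 only 1 gene fell. With the arrays centred 16 of these cytoskeleton genes rose and 2 fell.

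Regulators of G protein signalling, which switch off heterotrimeric G proteins, fell in 5 of 17 cases (29.4%), and RGS6 rose. RGS1 gave 10.13, 9.69 and 9.62 in the control and 4.21, 4.27 and 4.08 in g3_4. RGS2 gave 10.34, 10.15 and 10.02 against 4.29, 4.37 and 3.91. Both went from a strong signal to the floor on all arrays, and RGS13 fell by 3.64 to the same level. The rise of RGS6 (2.12-fold; limma adjusted p = 0.0316) was lost without any one of the control arrays, g3_4 array 2 or 3, or g2_1 array 3. With the arrays centred 4 members of this family fell and 2 rose. Of 81 genes of axon guidance and synapses, 14 (17.3%) fell, led by APBA1, BASP1 and CHRNA6, and 3 (3.70%) rose, among them SEMA4D (1.65-fold). Its median of -0.03 became 0.08 after centring of the arrays, with 12 falls and 7 rises, and the rises numbered 1 without g3_4 array 2 or 3.

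Metabolic and stress genes showed smaller groups of changes. The cholesterol synthesis list had 22 measured genes, of which 7 (31.8%) fell and 3 (13.6%) rose. SC5D, a late desaturase of the pathway, gave 7.55, 7.41 and 6.62 in the control and 4.03, 4.02 and 4.11 in g3_4 and fell by 3.14 (SE 0.20; limma adjusted p = 2.0e-06), and CYP51A1 fell by 1.70, while PMVK was 1.61-fold higher. The list's median was -0.51, and -0.21 without control array 1, and 1 rose without g3_4 array 2. Of 52 detoxification genes 10 (19.2%) fell and 6 (11.5%) rose. The glutathione transferase gene GSTM1 fell by 4.93, the glucuronosyltransferase gene UGT2B17 by 4.56 and the cytochrome gene CYP1B1 by 4.33, while GSTO1 was 1.95-fold and MGST2 2.11-fold higher. GSTM1 and UGT2B17 have close paralogs, so their probes may read several genes. Of 29 genes of the unfolded protein response 8 (27.6%) fell and 0 rose. TRIB3, a pseudokinase of that response, gave 8.93, 10.48 and 10.34 against 7.83, 8.22 and 8.12 and fell by 1.86, or 2.35 without control array 1. PPP1R15A, its phosphatase subunit, fell by 1.87, or 2.44 without that array. Without control array 1, 10 fell and 3 rose, and 3 or 4 fell without any single g3_4 array or without control array 2 or 3. With the arrays centred 5 fell and 1 rose.

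Zinc finger genes of the ZNF series, many of which encode repressors, fell in 73 of 482 cases (15.1%), and 9 (1.87%) rose. ZNF382 gave 7.35, 7.06 and 7.27 in the control and 4.31, 4.39 and 4.02 in g3_4 and fell by 2.99 (SE 0.12; limma adjusted p = 3.9e-08). ZNF532 fell by 3.21 and ZNF280B by 2.43, and ZNF652 was 2.09-fold higher. The median of the family was -0.08, and 0.03 after centring of the arrays, with 62 falls and 18 rises. The rises numbered 4 without g3_4 array 3. Of 23 HOX genes 6 (26.1%) fell, among them HOXD11 by 2.05, HOXD13 by 1.89 and HOXD10 by 1.30, and HOXC9 rose by 0.50. HOXD11 gave 9.15, 7.78 and 7.51 in the control and 6.07, 6.15 and 6.08 in g3_4, with control array 1 the highest. HOXC9 started under the floor, and 3 HOX genes rose with the arrays centred, beside 6 falls.

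Few genes of growth passed the test in either direction. Of 48 DNA replication genes 3 (6.25%) rose and 1 (2.08%) fell. The rises numbered 6 without control array 1, 8 with the arrays centred and 1 without g3_4 array 1. Of 40 genes of mitosis 2 rose and 1 fell, and leaving out single arrays gave 0 to 4 rises and 0 or 1 falls, and centring gave 3 and 0. Of 48 ribosomal protein genes measured, RPS6 alone changed, with a fall of 0.46. RPS6 gave 13.02, 13.16 and 13.14 in the control and 12.60, 12.65 and 12.68 in g3_4, and 1 gene of the family rose when control array 3 was left out or when the arrays were centred.

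**Figure D3:**
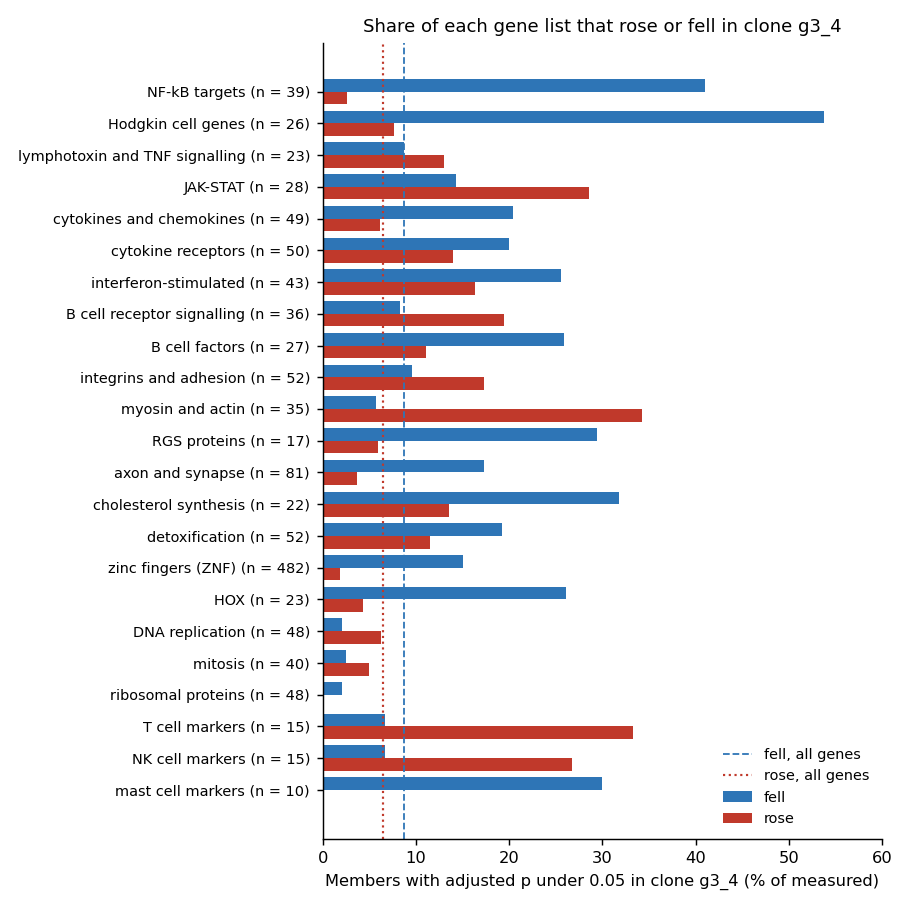
Share of the measured members of each gene list that fell (blue) or rose (red) in g3_4 at an adjusted p under 0.05, with the shares over all genes with a symbol as vertical lines (8.68% fell, 6.50% rose, a balance that turns when the arrays are centred). Hodgkin cell genes (53.8%) and NF-kB targets (41.0%) have the longest blue bars of those drawn, and myosin and actin genes (34.3%) the longest red bar. The lists were chosen with earlier results of these data known, and the lines include genes at the floor, which can hardly fall.

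Markers of other cell types were measured because FCER1A and several others of the falls are known from such cells. All arrays are of the line L-1236, so these values do not count cells of other types. In such bulk RNA, fewer expressing cells of the line and less RNA per cell cannot be told apart. Of 10 mast cell and basophil markers, FCER1A, IL1RL1 and the chymase gene CMA1 fell (30.0%, against 8.68% of all genes) and none rose. CMA1 gave 8.40, 7.65 and 8.49 in the control and 4.52, 4.54 and 4.25 in g3_4. KIT, CPA3 and HPGDS, named after their values were seen, were at the floor in both groups, with control means of 4.19, 4.09 and 4.41. Of 15 T cell markers 5 (33.3%) rose, against 6.50% of all genes, and GATA3 fell. CD2 gave 7.0, 8.25 and 8.21 against 9.39, 9.37 and 9.28 and was 2.88-fold higher, CD247 2.32-fold and CD4 1.99-fold. The CD3 chain genes CD3D, CD3E and CD3G, also named after their values were seen, were at the floor, with g3_4 means of 4.34, 4.71 and 4.03. Of 15 NK cell markers 4 (26.7%) rose and 1 (6.67%) fell. The cytotoxic genes PRF1 and GZMB were 2.06-fold and 1.85-fold higher, while the factor gene EOMES fell by 2.56. CD2 was lowest on control array 1, and without that array its log2 change was 1.12 in place of 1.53. Without g3_4 array 2 or 3 the T cell rises numbered 3. Among 25 myeloid markers 2 rose and 3 fell, led by MS4A4A and by CCL2 and FCGR2A, an Fc receptor gene that fell by 4.22.

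Called falls were unevenly spread over the chromosomes. On chromosome 9, 61 of 822 transcript clusters (7.42%) were called lower, against 3.19% over all rows, 5.52% on the X chromosome and 5.14% on chromosome 18. Rises on chromosome 9 stood at 1.09%, against 1.05% over all rows. Runs of 25 neighbouring genes above the floor showed where the falls lay, and they were picked by their values and carry no test. Of 12249 overlapping runs, the middle 90% had median changes between -0.24 and 0.21. The lowest, from SMARCA2 to TTC39B on chromosome 9 with JAK2, CD274 and PDCD1LG2 inside it, had a median of -1.12, with 16 falls and 0 rises. Further runs on chromosome 9, from CREB3 to ALDH1B1 with PAX5 and from HACD4 to NFX1 with CDKN2A, both had a median of -0.81. A run on chromosome 12 from NACA to ARHGEF25, with STAT6, had a median of -0.85, and the highest, from PLCL1 to FAM117B on chromosome 2, one of 0.46. CDKN2A, the cell cycle inhibitor locus, gave 10.56, 10.56 and 10.30 in the control and 5.37, 5.06 and 5.03 in g3_4 and fell by 5.32 (SE 0.17; limma adjusted p = 6.1e-09). In clone g2_1, whose comparison uses the same control arrays, the medians of these runs in the same order were -1.14, -0.88, -0.74, -0.74 and 0.47. DNA copy number was not measured here, and its part in these runs was not tested.

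**Figure D4:**
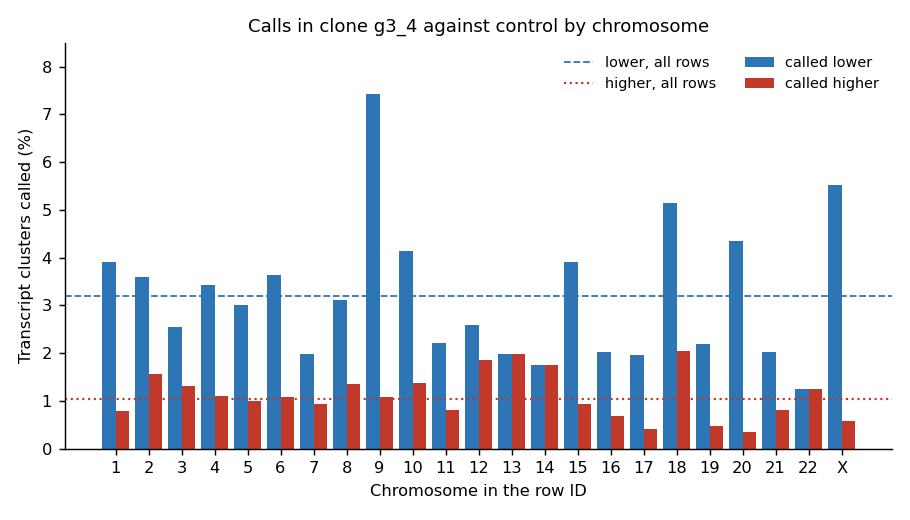
Share of transcript clusters called lower (blue) and higher (red) in g3_4 by chromosome, with the shares over all rows as horizontal lines at 3.19% and 1.05%. Chromosome 9 stands highest among falls at 7.42%, followed by X at 5.52% and chromosome 18 at 5.14%.

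Clone g3_4 differed from clone g2_1 in few genes. The test between the clones called 9 of 20893 transcript clusters (0.0431%), 5 higher (0.0239%) and 4 lower (0.0191%) in g3_4. At any fold, 11 (0.0526%) had an adjusted p under 0.05. An unadjusted p under 0.05 was found for 922 of the 20893, no larger a share than this threshold passes where nothing differs. With the array number as a block, which pairs the arrays of the clones, 15 were called, 9 higher and 6 lower. Leaving out 1 array gave between 4 and 21 calls, with 21 without control array 1, 5 without g3_4 array 3 and 4 without g2_1 array 2. The median 95% interval of a difference between the clones was 0.28 log2 units to either side before any adjustment for the number of tests. The smallest difference that passed the adjusted test was 0.82, that of EIPR1, and that of LTA, larger than this interval, did not pass. Of the 886 transcript clusters called in g3_4, 132 were not called in g2_1, which had 875 calls (4.19%) of its own, but 130 of those had the same sign there and 92 had an adjusted p under 0.05. The median size of the change of these 132, whichever its direction, was 1.10 in g3_4 and 0.86 in g2_1. Of them, 2 passed the test between the clones.

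Higher in g3_4 than in g2_1 were 5 called genes. ATP12A, the catalytic subunit of a proton and potassium pump, gave 8.20, 8.40 and 8.34 in g3_4 against 5.78, 5.60 and 5.69 in g2_1, a difference of 2.62 (SE 0.14; limma adjusted p = 2.7e-05). LRRN3 gave 10.51, 10.27 and 10.57 against 7.27, 7.95 and 8.31 and RBPMS 8.35, 8.61 and 8.20 against 6.31, 6.31 and 6.12, differences of 2.61 and 2.14. These 3 genes rose against the control in both clones, and further in g3_4. MAOA, a monoamine oxidase of the outer mitochondrial membrane, went the other way: it gave 11.61, 11.43 and 11.32 in the control, 7.24, 6.89 and 6.90 in g3_4 and 5.27, 4.98 and 5.17 in g2_1. It thus fell by 4.44 in g3_4 and by 6.31 in g2_1, a difference of 1.87. These 4 differences passed without any single array. The pseudogene CNTNAP3P2 fell in g2_1 and had a change of -0.24 (SE 0.18) in g3_4.

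Lower in g3_4 than in g2_1 were CD70, IL7R, HBEGF and GNB4, of which only IL7R was called in g3_4 against the control. The others, like CNTNAP3P2, NBAS and EIPR1, were named for the test between the clones after their values were seen. CD70, the ligand of CD27 and a member of the TNF family, gave 9.61, 10.37 and 10.08 in the control, 8.41, 9.40 and 9.43 in g3_4 and 11.30, 11.53 and 11.46 in g2_1. It fell by 0.94 in g3_4 and rose by 1.41 in g2_1, a difference of -2.35 (SE 0.26; limma adjusted p = 0.0115). Its difference did not pass without g2_1 array 2 (adjusted p = 0.135) or array 3 (0.0743), and its fall in g3_4 did not pass without g3_4 array 1 (0.0837), control array 2 (0.126), control array 3 (0.0845) or any single g2_1 array. IL7R, the interleukin 7 receptor, gave 6.99, 6.66 and 6.63 in the control, 5.87, 5.11 and 5.15 in g3_4 and 8.25, 7.44 and 7.07 in g2_1. The g2_1 arrays thus lay above the control and the g3_4 arrays below. The change of IL7R in g2_1 against the control (0.83, SE 0.28, limma adjusted p = 0.0825) did not pass. HBEGF, a growth factor that binds the EGF receptor, and the G protein subunit gene GNB4 rose in g2_1 by 1.95 and 1.24. In g3_4 their changes of 0.43 and 0.13 did not pass. NBAS and EIPR1, which both lie on chromosome 2 and act in membrane traffic, differed by 0.93 and 0.82, since both fell further in g2_1. The differences of CNTNAP3P2, IL7R, HBEGF, GNB4, NBAS and EIPR1 had adjusted p between 0.0282 and 0.0449, and each was lost without g2_1 array 2, g3_4 array 2 or g3_4 array 3, among others.

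**Figure D5:**
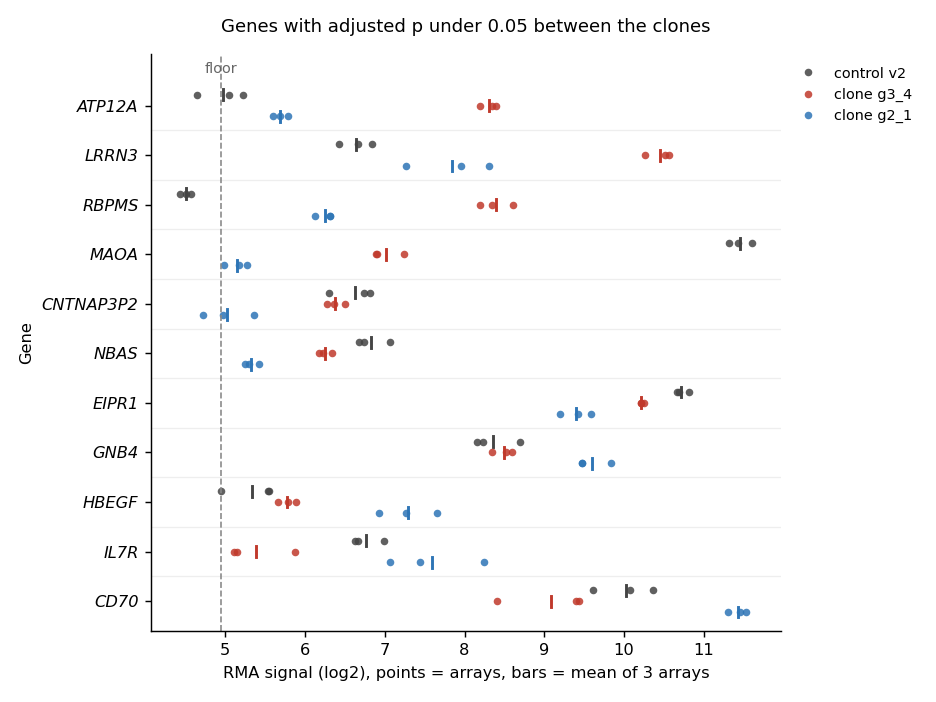
Log2 signal on each array of the 11 genes with an adjusted p under 0.05 between the clones, in order of the difference, with points for arrays, bars for means and the floor as a dashed line. ATP12A, LRRN3 and RBPMS are highest in g3_4, MAOA is between the control and g2_1, and CD70 and IL7R are lowest in g3_4 and highest in g2_1.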

How the data were processed

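The 9 arrays were analysed from the deposited table of log2 values, and the submitters' processing notes name RMA and Transcriptome Analysis Console 4.0 for the authors' processing. No scanner files were used, so the background correction and detection of single probes were not checked, and the genome build is not given in the sources used here. Samples were grouped by their titles. A linear model per row was fitted to all 9 arrays with limma 3.58.1 in R 4.3.3, so that the clone g2_1 added to the estimate of the spread, and p-values were adjusted by Benjamini-Hochberg over 20893 rows. The 555 other rows of the table were left out. Platform annotation named 17705 rows, none with several symbols, and 3188 had no name. For a gene with several rows, the row with the highest mean was used. Counts, windows, motifs and figures were made in Python 3.11.15.

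Called means an adjusted p under 0.05 and a log2 change of at least 1. List members rose or fell at an adjusted p under 0.05. Named genes were LTA, the 15 largest rises and falls, genes called between the clones, lost genes, from each of 65 lists at most 3 members that rose and 3 that fell, and any member of the lymphotoxin, NF-kB target and Hodgkin cell lists. Members and lists were chosen with earlier results of these data known. On simulated data with 200 changed rows among 20893 for g3_4 against control, 94% were recovered at a log2 change of 1.5, 98.5% at 2 and 99% at 3. The simulation drew normal noise with the same SD per row in all groups, without an outlying array or a shared effect of the array number. The measured control arrays spread more than that, so these shares cannot be carried over to them. Arrays of the clones with the same number deviated together (correlations 0.435, 0.191 and 0.31). The main fit did not use this pairing, so its SEs and p-values between the clones leave it out. The array number entered as a block only in an alternative fit. The number of arrays limits the precision. Alternatives covered the arrays in the fit, pairing, scaling, filtering, the variance model, the call rule and each array left out.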

Additional observations from a re-analysis of the deposited data

Results flagged for a closer look

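The changes of g3_4 and g2_1 against the shared control arrays differed by the limma test of the difference itself for 11 genes. As g3_4 minus g2_1 on the log2 scale, the values were 2.62 for ATP12A, 2.61 for LRRN3, 2.14 for RBPMS, 1.87 for MAOA, 1.36 for CNTNAP3P2, 0.93 for NBAS and 0.82 for EIPR1. On the lower side they were -1.11 for GNB4, -1.51 for HBEGF, -2.21 for IL7R and -2.35 for CD70. The report gives the arrays and the alternatives that end each call.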

How the results depend on the processing

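Of the 141 genes named with values, none that passed the test against the control changed direction under any alternative. LTA kept its call throughout, with changes from -4.14 to -4.47. Between g3_4 and the control, 740 to 1019 transcript clusters were called under all alternatives but 2. A test with unequal variances for each row called 51 (6 higher, 45 lower), and 99 of the named genes that passed the limma fit did not pass it. Without a limit on the fold, 2983 passed (1278 higher, 1705 lower). The array numbers were not taken to pair g3_4 with the control (correlations 0.298, 0.0565 and 0.257), and a replicate block gave 897 calls. Between the clones, 9 calls became 18 (12 higher) with only the groups compared, 15 (9 higher) with the replicate block, 21 (16 higher) with array weights and 21 (15 higher) without the arrays numbered 1. Unequal variances gave 0 calls, 0 higher and 0 lower, where the limma fit had 9 by the same rule. Leaving out single arrays gave 4 to 21 calls, 4 to 15 higher and 0 to 6 lower. NF-kB targets that fell numbered 16, 13 to 16 without single arrays and 3 with unequal variances. The 64 lost genes became 32 with the floor at the 90th percentile of olfactory receptor genes and 107 with a control mean of at least 7. The share of chromosome 9 called lower became 16.8% without a limit on the fold. The causes of these moves were not tested, except that a lower threshold calls more by construction. With 3 arrays a group, small changes and signals near the floor were not resolved.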

Other observations

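Several gene families not described above held changes in g3_4. Of 30 lysosome and cathepsin genes, 9 (30.0%) rose and 7 (23.3%) fell (limma adjusted p under 0.05), with a median change of 0.16, and 4 rose without g3_4 array 1 or 3 and 5 without control array 2. Of 62 RAB genes, which steer membrane traffic, 12 (19.4%) fell and 6 (9.68%) rose, or 10 and 8 with the arrays centred. Among 73 respiratory chain genes 10 (13.7%) rose and 4 (5.48%) fell, none by 2-fold. The rises numbered 18 without control array 1, 6 without control array 2 and 5 without g3_4 array 1, and 25 with the arrays centred, beside 2 falls. The falls numbered 2 without control array 1, g2_1 array 2 or any single g3_4 array.

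The promoters of the lost genes had a median ratio of observed to expected CpG of 0.59. The median was 0.86 for tested genes with a control mean of at least 8, 0.77 for all tested genes, 0.78 for genes called lower and 0.58 for all promoters in the table, which is close to that of the lost genes. This was looked at after the values were seen and carries no test. On chromosome 3, a run of 25 neighbouring genes from MYNN to USP13 had a median change of 0.07 in g3_4 and 0.45 in g2_1, and its median difference between the clones of -0.43 was the lowest of all runs.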
